A study of Mus musculus with 6 samples.

Results

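Accessible chromatin was examined at the ends of long noncoding RNA (lncRNA) genes that stand apart from protein-coding genes, in E14 mouse embryonic stem cells. The regions were ATAC-seq peaks on chromosomes 1 to 19 that lay within 1 kb of either end of a RefSeq gene of biotype lncRNA and over 1 kb from every end of a protein-coding gene. By that rule, which used position and no measured value, 3343 of the 75108 peaks on those chromosomes were taken (4.45%, Wilson 95% interval 4.31 to 4.60), of 77629 peaks in all. They are called lncRNA-end peaks here. They are set against 56484 other distal peaks, over 1 kb from the ends of lncRNA and protein-coding genes alike, and against 15281 peaks within 1 kb of a protein-coding gene end. A further 1807 peaks at lncRNA ends lay within 1 kb of a protein-coding end as well and were counted with the protein-coding ends.

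In ATAC-seq the Tn5 transposase cuts accessible DNA and adds sequencing adapters there. The cells were untreated E14 on gelatin in 2i/LIF medium, with the genotype NSD1-dTAG knockin, in which the histone methyltransferase NSD1 carries a tag for degradation by the compound dTAG-13. The same line exposed to 500 nM dTAG-13 for 1, 6 or 24 h, and its day 6 embryoid bodies grown with or without the compound, make up the other 5 samples, which were not analysed here; nothing below measures what losing NSD1 does. There was 1 library and no replicate: no p-value was computed, and intervals cover counting error or the spread over peaks and genes within this library. All 8 embryonic stem cell markers examined had a gene-end peak (median pileup 99). So did 3 of 6 fibroblast, 2 of 5 primitive endoderm and 4 of 5 trophoblast markers. Their median pileups were 3.5, 0 and 17, with a gene without a peak counted as 0. A peak is common at protein-coding genes, as 64.6% of 16457 protein-coding starts had one within 1 kb. The marker counts are small and were not tested against that share, so they are a description and do not establish cell identity.

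lncRNAs are transcribed mostly by RNA polymerase II, and most are spliced and capped like messenger RNAs, but they carry no long open reading frame. Some act in the nucleus on the chromatin beside their own gene, as several imprinted antisense transcripts do, some serve as precursors of small nucleolar RNAs or microRNAs, and for most no function is known. In embryonic stem cells, lncRNA transcription often begins in open chromatin at promoters or enhancers, and the promoters of lncRNAs are known to be poorer in CpG dinucleotides than those of protein-coding genes.

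Promoters of 5 lncRNA genes are shown because they were covered by a peak and differ widely in CG content, and the one richest in CG comes first. Each is the RefSeq window of 300 bases, 250 before to 50 after the annotated start, from build GRCm38.p6, printed from 5′ to 3′ in the direction of transcription with every CG in capitals. Chaserr, beside Chd2, lies at chr7:73558346-73558645 on the minus strand. Oip5os1, also known as Cyrano, which binds the microRNA miR-7, lies at chr2:119594046-119594345 on the plus strand. Kcnq1ot1, the imprinted antisense transcript of the Kcnq1 domain, lies at chr7:143296498-143296797 on the minus strand. Platr26 and Platr10, named as pluripotency-associated transcripts, lie at chr2:71719167-71719466 on the plus strand and at chr3:75655682-75655981 on the minus strand.
Chaserr: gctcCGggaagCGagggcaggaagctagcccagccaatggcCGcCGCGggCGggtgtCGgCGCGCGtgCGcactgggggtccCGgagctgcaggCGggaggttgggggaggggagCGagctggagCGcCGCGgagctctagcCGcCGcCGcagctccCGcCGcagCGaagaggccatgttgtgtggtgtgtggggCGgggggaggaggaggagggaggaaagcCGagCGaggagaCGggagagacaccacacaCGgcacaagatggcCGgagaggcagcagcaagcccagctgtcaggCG
Oip5os1: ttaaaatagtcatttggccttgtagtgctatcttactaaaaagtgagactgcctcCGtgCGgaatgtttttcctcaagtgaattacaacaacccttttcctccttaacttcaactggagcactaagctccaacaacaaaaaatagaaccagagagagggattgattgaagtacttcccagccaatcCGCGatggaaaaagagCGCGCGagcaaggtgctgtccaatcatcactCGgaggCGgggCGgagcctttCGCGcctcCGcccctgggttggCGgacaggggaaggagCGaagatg
Kcnq1ot1: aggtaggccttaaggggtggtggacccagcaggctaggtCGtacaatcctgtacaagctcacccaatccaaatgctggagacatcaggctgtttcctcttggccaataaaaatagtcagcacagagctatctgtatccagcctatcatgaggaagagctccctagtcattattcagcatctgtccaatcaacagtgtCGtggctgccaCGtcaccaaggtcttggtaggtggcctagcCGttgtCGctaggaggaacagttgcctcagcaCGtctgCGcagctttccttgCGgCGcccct
Platr26: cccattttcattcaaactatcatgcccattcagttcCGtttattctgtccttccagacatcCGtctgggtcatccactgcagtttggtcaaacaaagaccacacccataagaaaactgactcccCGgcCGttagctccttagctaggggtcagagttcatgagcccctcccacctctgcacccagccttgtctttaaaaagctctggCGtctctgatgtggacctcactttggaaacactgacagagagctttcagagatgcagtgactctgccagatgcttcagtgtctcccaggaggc
Platr10: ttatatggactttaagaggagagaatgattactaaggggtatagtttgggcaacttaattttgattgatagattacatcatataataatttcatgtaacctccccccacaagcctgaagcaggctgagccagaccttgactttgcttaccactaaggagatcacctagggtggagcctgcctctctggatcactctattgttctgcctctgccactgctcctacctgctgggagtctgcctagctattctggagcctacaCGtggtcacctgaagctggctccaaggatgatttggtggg
The windows hold 30 CG in Chaserr, 15 in Oip5os1, 9 in Kcnq1ot1, 5 in Platr26 and 1 in Platr10. All 5 starts were covered by a peak. The summit pileup, which counts the reads or fragments that overlap the highest point of a peak, was 199 at Chaserr (Poisson 95% interval 172 to 229), 90 at Oip5os1 (72.4 to 111), 77 at Kcnq1ot1 (60.8 to 96.2), 137 at Platr26 (115 to 162) and 68 at Platr10 (52.8 to 86.2). Platr26, with few CG, thus had a taller peak than the CG-rich Oip5os1, and their Poisson intervals did not overlap.

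lncRNA-end peaks were taller and wider than other distal peaks and shorter and narrower than peaks at protein-coding ends. The median pileup was 25 at lncRNA ends (95% interval 25 to 26), against 20 at other distal sites and 54 at protein-coding ends (54 to 55). Of the lncRNA-end peaks, 61.3% (Wilson 59.7 to 63.0) exceeded the median pileup of other distal peaks and 20.1% (18.8 to 21.5) exceeded that of protein-coding gene-end peaks, where 50% would mark equal medians. The median width was 515 bp, against 427 bp at other distal sites and 821 bp at protein-coding ends. Fold enrichment, the authors' ratio of the summit to its local background, set lncRNA ends and other distal sites less apart, at medians of 6.95 and 6.52, with 9.88 at protein-coding ends. At genes with a symbol of their own the median fold was 6.26 (5.61 to 7.26). That is lower than the 6.52 of other distal peaks, but its interval holds 6.52. A pileup of at least 100 was reached by 192 lncRNA-end peaks (5.74%), 1585 other distal peaks (2.81%) and 3106 protein-coding gene-end peaks (20.3%); over all peaks on these chromosomes the share was 6.5%. The difference between lncRNA-end and other distal peaks was 2.94 percentage points (Newcombe 95% interval 2.18 to 3.79).

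**Figure D1:**
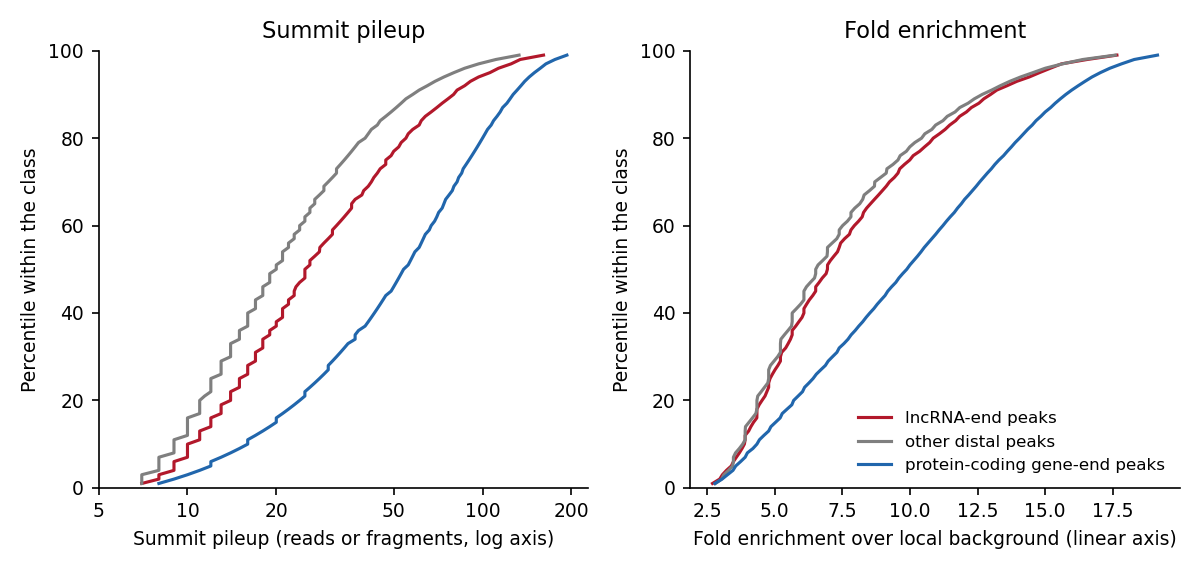
Percentile within each class of peaks (vertical axes) against summit pileup in reads or fragments on a log axis (left) and against fold enrichment on a linear axis (right), for lncRNA-end peaks, other distal peaks and protein-coding gene-end peaks of 1 library, from the first to the 99th percentile. The lncRNA-end curve lies between the others in pileup, with medians of 25, 20 and 54, and close to the other distal peaks in fold, with medians of 6.95, 6.52 and 9.88.

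Most isolated lncRNA genes had no lncRNA-end peak. Peaks within 1 kb of a protein-coding end did not count for them, and a gene with 1 isolated end entered with that end alone. Of 12408 lncRNA genes on these chromosomes, 12190 had at least 1 end over 1 kb from every protein-coding end, and 2965 of those had a lncRNA-end peak (24.3%, 23.6 to 25.1). With a pileup of at least 20 required, 1948 had one (16%). A single peak was found at 2548 genes, 2 at 379 genes, 3 at 37 genes and 4 at Gm30543, a gene of 7003 bp on chromosome 7 with pileups of 143, 78, 69 and 53. Among the genes with 3 were Mir22hg, the host of the microRNA miR-22 (197, 66 and 54), Neat1, the RNA that builds nuclear paraspeckles (55, 27 and 16), and Dleu2 (41, 26 and 23). The lowest pileup listed at all was 6, so weaker accessibility was not detectable at this depth.

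Annotated starts had a peak more often than the other ends. The strand of 9291 of the 12408 genes could be read from the RefSeq promoter table. Of 8054 isolated starts, 1680 had a lncRNA-end peak (20.9%, 20 to 21.8), against 946 of 8848 other ends (10.7%, 10.1 to 11.4), a difference of 10.2 percentage points (9.07 to 11.3). At ends of unknown strand the share was 13.8%. Both classes of lncRNA end stood above isolated pseudogene ends, at 7.36%, which the other lncRNA ends exceeded by 3.33 points (2.59 to 4.09). Pseudogene starts and other ends were pooled, so that difference is not between like ends. The effect of the rule of isolation on it was not tested. Both classes of lncRNA end stood below protein-coding genes, where 64.6% of starts and 17.3% of other ends had a peak. Starts were known for 16457 of the 20665 protein-coding genes on these chromosomes. The difference between lncRNA and protein-coding starts was -43.8 points (-44.9 to -42.6). Peaks within 1 kb of a protein-coding end counted for protein-coding ends alone. How much this lowers the lncRNA shares was not tested. A peak covered the annotated base itself at 11.0% of lncRNA starts and 1.76% of other lncRNA ends, a difference of 9.26 points (8.53 to 10.0). Protein-coding starts were covered in 54.8%, from which lncRNA starts differed by -43.7 points (-44.7 to -42.7), and other protein-coding ends in 2.67%.

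**Figure D2:**
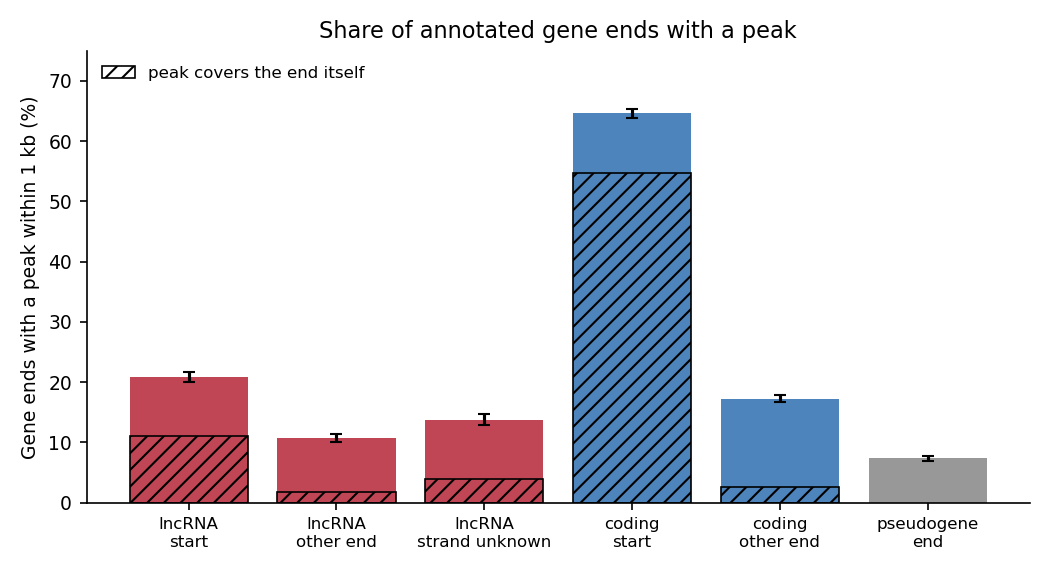
Share of annotated gene ends with a peak within 1 kb, in percent with Wilson 95% intervals, for isolated lncRNA ends (start, other end, strand unknown), protein-coding ends (start, other end) and isolated pseudogene ends, with hatching for the share whose annotated base is itself covered by a peak. lncRNA starts reach 20.9% and other lncRNA ends 10.7%. The shares are 64.6% of 16457 protein-coding starts, 17.3% of 16457 other protein-coding ends and 7.36% of pseudogene ends. Peaks within 1 kb of a protein-coding end count for protein-coding ends alone.

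Within single genes the start was also the more frequent side. Of 5845 genes longer than 4 kb with both ends isolated, 965 had a peak at the start alone, 347 at the other end alone, 160 at both and 4373 at neither. Where only 1 end had a peak it was the start in 73.6% (71.1 to 75.9), against 94.5% (94 to 95) in protein-coding genes of that length. Platr22, Platr6 and Tunar, which has roles in pluripotency and neural differentiation, had their peak at the start alone, while Mirg, an imprinted microRNA host, had it at the other end alone, at a pileup of 12.

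Peaks lying on the start were taller than peaks beside it. The 871 that covered an annotated start had a median pileup of 37 (34 to 40), a median fold of 8.75 and a median width of 688 bp, whereas the 893 near a start without covering it had 22 (21 to 24), 6.08 and 460 bp. Peaks at a start only had a median pileup of 27 (26 to 29), and peaks at the other end only had 22 (21 to 23). Peaks lying within 1 kb of both a start and another end had 37 (31 to 43). A wider peak is more likely to cover a given base or to reach both ends, so these splits also sort peaks by width. Heights were not compared at equal width. The summit lay within 250 bp of the annotated position in 44.2% of 1808 pairs of a peak and a start, against 17.0% of 1000 pairs at other ends. Around starts the median summit position was 12 bp downstream (2 bp upstream to 34 bp downstream). The 100 bp just before the start held 14.8% of summits and the next 100 bp held 10.2%, against 2.3% and 2.10% at other ends. At 42 peaks lncRNA starts lay on both strands, and those had a median pileup of 34 (23 to 51).

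**Figure D3:**
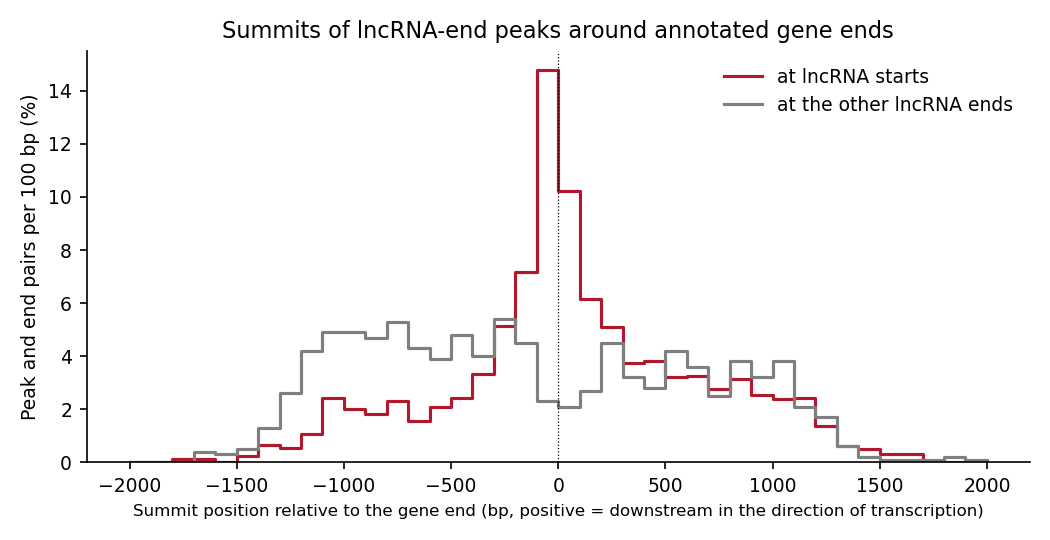
Position of the summit relative to the annotated gene end in bp (horizontal axis, positive values downstream in the direction of transcription) and share of pairs of a lncRNA-end peak and a gene end per 100 bp (vertical axis, percent), for starts and for other ends. Summits at starts gather next to the annotated base, with 14.8% in the 100 bp before it, whereas other ends hold 2.3% there.

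Annotation class, length and position went with the share of genes that had a peak. Genes with a curated RefSeq transcript had one in 29.2% (908 of 3105) and genes with predicted transcripts only in 22.6% (2057 of 9085), a difference of 6.60 points (4.80 to 8.44). Genes with a symbol of their own had one in 37.7% (172 of 456), and genes with a placeholder symbol (Gm, LOC or Rik) in 23.8%. By gene length the share was 27.1% up to 2 kb, 26.5% from 2 to 10 kb, 22.2% from 10 to 50 kb and 17.8% over 50 kb. Starts 1 to 10 kb from a protein-coding end had a peak in 29.9%, starts at 10 to 100 kb in 21.8% and starts farther than 100 kb in 10.3%. Starts inside the body of a protein-coding gene had one in 24.6%, against 19.4% outside. Of the lncRNA-end peaks themselves, 32.7% had their summit inside a protein-coding body, against 51.2% of other distal peaks. By chromosome the share of genes with a peak ran between 15.2% on chromosome 14 and 28.7% on chromosome 17. These properties overlap, and their separate parts were not tested.

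lncRNA starts with a peak were richer in CpG than those without. The CpG ratio, the observed number of CG over that given by the C and G content, was computed for the 7790 isolated lncRNA starts with a promoter window. Its median was 0.353 (0.333 to 0.368) at the 1628 starts with a peak, against 0.202 (0.197 to 0.206) at the 6162 without. Starts covered by a peak had 0.462 (0.427 to 0.486), and the G+C content was 52.0% with a peak and 46.3% without. The share of starts with a peak was 11.2% up to a ratio of 0.2, 19.7% from 0.2 to 0.4, 33.3% from 0.4 to 0.6, 54.4% from 0.6 to 0.8 and 76.0% above 0.8. The 9841 protein-coding starts with a promoter window had a peak in 7.80%, 31.8%, 79.2%, 96.1% and 99.6% in the same bins. For them any peak within 1 kb counted, whereas lncRNA starts were given lncRNA-end peaks only. lncRNA starts were thus 3.35 points above protein-coding starts in the lowest bin (1.88 to 4.79) and differed from them by -45.9 points in the middle bin (-49.6 to -42.0). Where a peak was present, its median pileup ran through 23, 26, 27.5, 40 and 56.5 over the bins at lncRNA starts, and through 29, 37, 56, 76 and 82 at protein-coding starts.

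**Figure D4:**
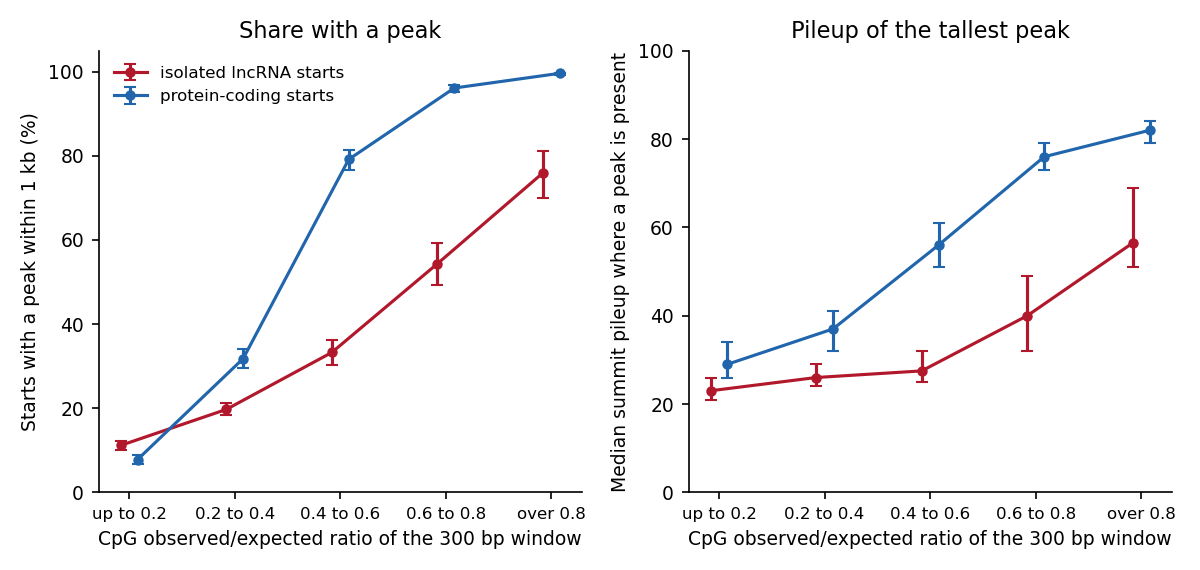
Share of starts with a peak within 1 kb in percent (left, Wilson 95% intervals) and median pileup of the tallest peak where there is one (right, 95% intervals of the median), by CpG observed/expected ratio of the 300 bp promoter window, for isolated lncRNA starts and protein-coding starts. In the bin above 0.8 the share is 76.0% at lncRNA starts and 99.6% at protein-coding starts, with median pileups of 56.5 and 82. Peaks within 1 kb of a protein-coding end count for protein-coding starts alone.

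Exceptions stood at both ends of that range. Among genes with a symbol of their own and a ratio over 0.8, only Fendrr had no lncRNA-end peak at its start (ratio 0.997). Fendrr is the lncRNA beside Foxf1 that is needed for heart and body wall development. A peak within 1 kb of a protein-coding end would not count for it, so its start is not shown to be closed. Sox1ot had a ratio of 1.08 and a pileup of 25 (16.2 to 36.9). Conversely, the tallest peaks at starts with a ratio up to 0.2 were at Gm41094 (pileup 194, ratio 0.113), Platr7 (158, no CG in the window), Gm40985 (157, ratio 0.199) and Gm36038 (156, ratio 0.0437). Fendrr and these CpG-poor genes were singled out after their values were seen. The peaks of Gm40985 and Gm36038 cover the start, whereas that of Gm41094 stops 378 bp short of it and that of Platr7 stops 956 bp short.

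Words holding a CG were more frequent at lncRNA starts with a peak, and the TATA box was less frequent. In the promoter windows, searched on both strands, GGGCGG, the core of the GC box, was found at 27.0% of lncRNA starts with a peak and 6.57% of those without, a difference of 20.5 points (18.3 to 22.7). CCGGAA, the core of ETS factor motifs, was found at 12.8% and 4.77%. TATAAA, the TATA box, was found at 12% with a peak and 18.0% without, a difference of -5.96 points (-7.74 to -4.04). Over all lncRNA and protein-coding windows the shares were 28.1% for GGGCGG, 12.6% for CCGGAA and 17.1% for TATAAA. The palindromes TGCGCA, of NRF1 motifs, and CACGTG, the E-box, differed by 3.20 and 3.02 points. The remaining words had differences whose intervals held 0, namely CCAAT (the CCAAT box), ATGCAAA (part of the octamer of POU factors), CAAGGTC (of ESRRB motifs) and AAGATGG (of YY1 motifs). The GC box, ETS, NRF1 and E-box words each contain a CG, so their shares can move with the CpG ratio. TATAAA holds neither C nor G, so its share can move with the G+C content. The part of base composition in these differences was not tested. Among starts with a ratio up to 0.4, GGGCGG was at 14.2% with a peak and 5.27% without, CCGGAA at 8.36% and 3.46%, and TATAAA at 13.8% and 18.0%. In the printed promoters, Chaserr and Oip5os1 hold GGGCGG 2 times each. CCAAT occurs 3 times in Kcnq1ot1, 2 times in Oip5os1 and once in Chaserr. CAAGGTC occurs once each in Kcnq1ot1 and Platr10, and CACGTG once in Platr10. TGCGCA occurs once each in Chaserr and Kcnq1ot1, and AAGATGG once in Chaserr. Platr26 holds none of these words. A match is a run of letters and not a shown binding site.

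Lists of well-known lncRNA genes are described by counts and by the pileup of each gene's tallest lncRNA-end peak. A gene can stand in more than 1 list: Snhg14 is in 3, and Kcnq1ot1, Meg3, Mir22hg, Mir9-3hg and Mir124a-1hg are in 2 each.

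Of 20 isolated pluripotency-associated genes, 14 had a peak (70%, 48.1 to 85.5), with a median tallest pileup of 70.5. Over all isolated lncRNA genes the share was 24.3% and that median was 27 (26 to 28), and among those with a symbol of their own the share was 37.7%. Platr22 had a pileup of 166 (142 to 193), Platr7 one of 158 (134 to 185) and Platr26 one of 137 (115 to 162). Platr29 had 110 and Lncenc1, a lncRNA of naive embryonic stem cells, had 81. Next stood Eprn at 79, Platr4 at 73, Platr10 at 68 and Tunar at 66. Platr27, Platr9, Platr8 and Platr3 had 61, 60, 59 and 47, and Platr6 had the lowest of the list, 20 (12.2 to 30.9). All 14 thus reached a pileup of at least 20. Platr11 and Platr14 were among the 6 without a peak. At Lncenc1 the peak lay 1192 bp downstream of the start and did not cover it.

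Hosts of small RNAs had a peak in 24 of 35 isolated genes (68.6%, 52.0 to 81.5), with a median tallest pileup of 67. The share among isolated lncRNA genes with a symbol of their own was 37.7%. Mir22hg was the tallest at 197 (170 to 227). The small nucleolar RNA hosts followed, with Snhg8 at 133, Dancr at 132, Snhg9 at 124 and Snhg5 at 110. Mirc35hg had 104, Mir9-3hg 91, Snhg3 86, Snhg15 81 and Snhg16 75. Epb41l4aos, Mir124a-1hg, Snhg17, Snhg4 and Snhg7 had between 61 and 74. Zfas1, Snhg12, Snhg20 and Snhg1 had between 50 and 56. Snhg11 and Snhg7os had 35 and 28. Mir17hg (17), Mir1a-1hg (12) and Mir100hg (8, 3.45 to 15.8) were the lowest. The tallest peaks of Mir9-3hg, Snhg1, Zfas1, Snhg7os and Mir17hg lay at the other end, and the start of Mir9-3hg had a pileup of 27. The starts of Snhg1 and Zfas1 lie within 1 kb of a protein-coding end. Mir124-2hg and Mir133a-1hg had no peak. Gas5 had no isolated end.

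Of 13 isolated nuclear or widely expressed genes, 12 had a peak (92.3%, 66.7 to 98.6), with a median tallest pileup of 83.5. Here too the share to set beside it is the 37.7% of isolated lncRNA genes with a symbol of their own. Chaserr had 199 and Mir22hg 197. 2700038G22Rik had 128 (107 to 152), Crnde 127 (106 to 151) and Malat1, an abundant RNA of nuclear speckles, 113 (93.1 to 136). Oip5os1 had 90, Kcnq1ot1 77, Neat1 55 and Norad, which binds PUMILIO proteins, 36. Pvt1, beside Myc, and Miat had 22 each, and Meg3 had 15. Neat1 had the lowest fold of all lncRNA-end peaks, 2.11. Tug1 was the 1 gene of the list without a peak, and it has 1 isolated end.

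The imprinted genes had a peak in 5 of 10 (50%, 23.7 to 76.3), with a median tallest pileup of 18. That interval holds the 24.3% of all isolated lncRNA genes and the 37.7% of those with a symbol of their own. Kcnq1ot1 stood far above the rest at 77 (60.8 to 96.2). Igf2os had 27 (17.8 to 39.3), Airn, the antisense transcript that silences the Igf2r domain, had 18 (10.7 to 28.5), Meg3 had 15 (8.40 to 24.7) and Mirg had 12 (6.20 to 21.0). The peak over the Airn start was 1654 bp wide. H19 and Nctc1 were among the 5 without a peak. With a pileup of at least 20 required, 2 of 10 had one (20%), against 16% of all isolated lncRNA genes.

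Lineage and developmental genes had a peak in 12 of 24 (50%, 31.4 to 68.6), with a median tallest pileup of 33.5. That interval holds the 37.7% of isolated lncRNA genes with a symbol of their own, so the share is not set apart from theirs. The hosts of neural microRNAs Mir9-3hg and Mir124a-1hg had 91, at the other end, and 69. Bvht, a lncRNA of cardiac commitment, had 44 (32.0 to 59.1), and Six3os1 had 42 (30.3 to 56.8). Halr1 in the Hoxa cluster had 37, Zeb2os 36 and Nkx2-2os 31. Sox1ot and Hotair had 25 each and Pantr2 had 22. Hottip, at the distal end of the Hoxa cluster, and Otx2os1 had 13 each (6.92 to 22.2). Dlx6os1 and Evx1os were among those without a peak. Of the 12 genes, Mir9-3hg alone exceeded 70.5, the median of the pluripotency-associated list.

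**Figure D5:**
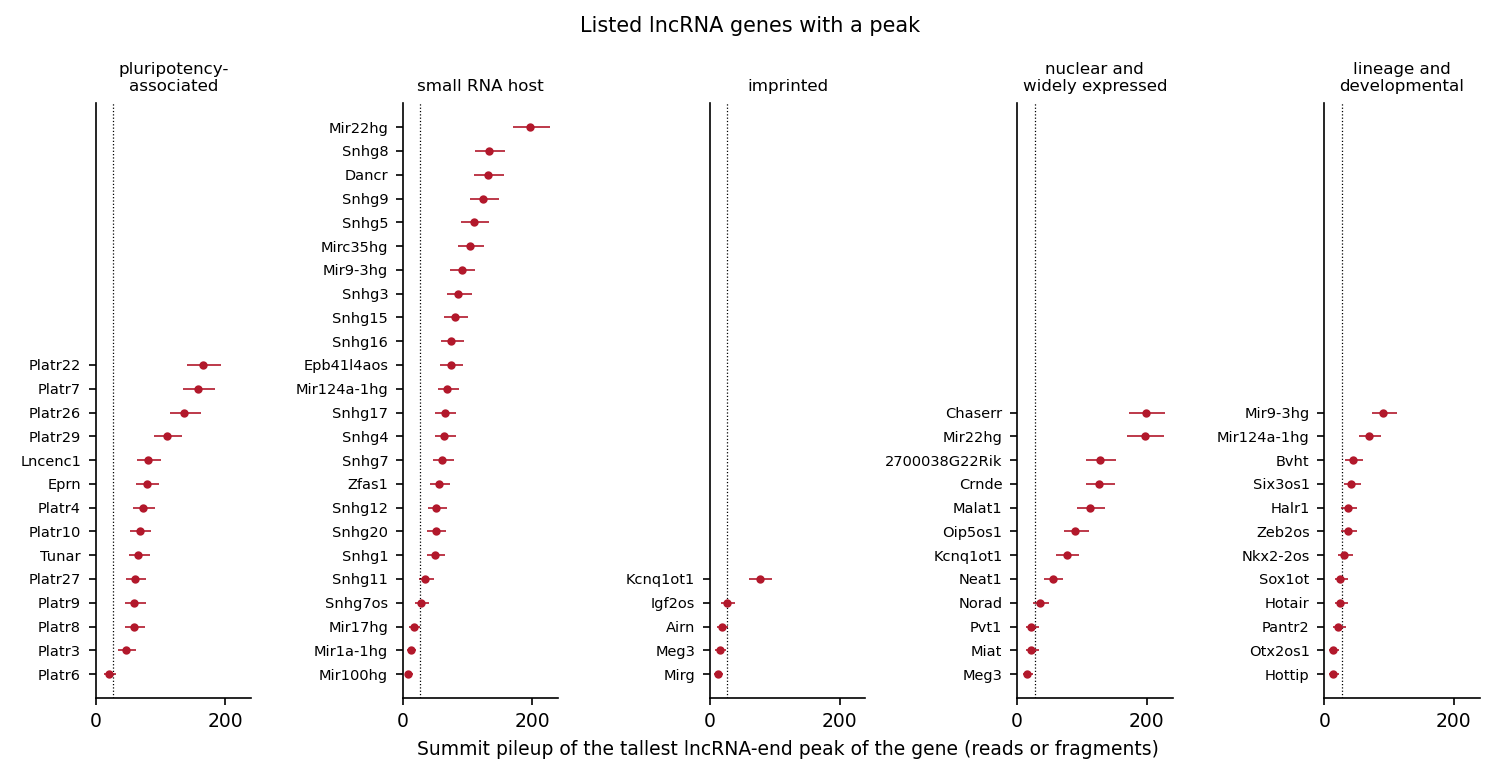
Summit pileup of the tallest lncRNA-end peak of each listed gene that has one, in reads or fragments with Poisson 95% intervals, by list; the dotted line marks 27, the median over all isolated lncRNA genes with a peak. Chaserr (199), Mir22hg (197) and Platr22 (166) lead their lists, while 4 of 5 imprinted genes lie at or below 27.

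Near genes of the pluripotency network, lncRNA-end peaks were found at some loci. Within 100 kb of Prdm14 the peak of Gm39592 reached 101 (82.3 to 123), 8.84 kb outside the gene. Gm14261, whose start lies in the body of Sall4, had 76 (59.9 to 95.1). Gm32252, 85.2 kb from Pou5f1, had 46 (33.7 to 61.4), and Gm40931, 94.7 kb from Jarid2, had 25 (16.2 to 36.9). Near Sox2 the peaks of Gm34941 and Gm3143 had 16 and 7. Near Tbx3 there were 4, the closest at Tbx3os2 (25) and the tallest at AW549542 (58, 44 to 75). None was within 100 kb of Nanog, Esrrb, Klf4, Klf5, Zfp42, Tfcp2l1, Lin28a or Nsd1. The share of all protein-coding genes with such a peak within 100 kb is not given here. Neither the presence nor the absence of a peak is therefore read as particular to these loci.

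The tallest lncRNA-end peak stood apart from all others. At AY036118 on chromosome 17 (39843110 to 39848697) the pileup was 2117 (2028 to 2209), with a width of 5588 bp and a fold of 2.95. That peak spans all 1849 bp of Rn18s-rs5, annotated as a pseudogene and named for 18S ribosomal RNA, and overlaps AY036118 itself over 586 bp. The part of repeated sequence in its pileup was not tested. The next were Gm40987 at 336 (301 to 374), Gm13165 at 286 (254 to 321), Gm52861 with peaks of 250 and 228 near its other end and inside the gene, and Gm40988 at 243. Gm52095 (232), Gm40034 (224), LOC115487798 (209) and 2700012I20Rik (207) completed the 10 tallest peaks. By fold the order was another, with Gm40985 at 22.5, Gm32755 at 20.4, Gm40345 at 20.3, Gm13483 at 20 and Zfp286os at 19.9. Gm36183, Gm40987, Gm46428, Gm36472 and 4930547E08Rik followed between 19.4 and 19.7. Only Gm40987 was in both groups of 10. The widest after AY036118 were at Gm36816 (2935 bp), Unc45bos (2851 bp), Gm7854 (2788 bp) and Gm33458 (2465 bp).

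Genes with high folds included close sequence relatives. Starting from Gm40985, 7 of the 7790 lncRNA promoter windows, Gm40985 included, shared at least 10 words of 12 bases with it, and all 7 had a peak, against 20.9% of all isolated lncRNA starts. Gm40985 itself was picked for its peak. Of the 7, 6 lie on chromosome 13. This group was chosen after the values were seen, and it is a description only. Gm26715, with 96.7% identity to Gm40985 over 300 aligned bases, had a fold of 16.6 and a pileup of 49. Gm40989 had 14.3 and 47, Gm46428 had 19.6 and 65, Gm45966 had 17.5 and 88, Gm1976 on chromosome 17 had 15.6 and 95, and Gm40987 had 19.6 and 336. Their CpG ratios ran between 0.101 and 0.350. Among 9841 protein-coding windows, of which 5831 had a peak, 8 were related in the same way and all 8 had a peak. Over the larger set of 16457 protein-coding starts the share with a peak was 64.6%. Zfp640 (pileup 204) and 2410141K09Rik (180) were the tallest of the 8. The windows of Gm40985, Gm46428 and Gm40987 are shown in 1 common orientation, with the stretches of 12 or more bases that all 3 share in capitals. Gm40985 is printed from chr13:65415019-65415318 on the minus strand, opposite to its transcription. Gm46428 lies at chr13:66519416-66519715 on the plus strand, and Gm40987 lies at chr13:65990947-65991246 on the minus strand.
Gm40985: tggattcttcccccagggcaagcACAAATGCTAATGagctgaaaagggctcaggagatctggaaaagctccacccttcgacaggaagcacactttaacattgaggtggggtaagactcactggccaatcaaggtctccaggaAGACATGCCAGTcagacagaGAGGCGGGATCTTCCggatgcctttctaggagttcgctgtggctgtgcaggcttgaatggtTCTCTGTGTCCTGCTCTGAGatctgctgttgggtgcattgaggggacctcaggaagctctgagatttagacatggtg
Gm46428: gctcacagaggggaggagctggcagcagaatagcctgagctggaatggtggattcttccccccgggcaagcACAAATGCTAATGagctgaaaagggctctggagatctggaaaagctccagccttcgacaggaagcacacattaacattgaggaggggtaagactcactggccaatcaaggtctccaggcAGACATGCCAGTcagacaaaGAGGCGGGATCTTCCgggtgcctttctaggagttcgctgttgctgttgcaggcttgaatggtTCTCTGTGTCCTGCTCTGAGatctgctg
Gm40987: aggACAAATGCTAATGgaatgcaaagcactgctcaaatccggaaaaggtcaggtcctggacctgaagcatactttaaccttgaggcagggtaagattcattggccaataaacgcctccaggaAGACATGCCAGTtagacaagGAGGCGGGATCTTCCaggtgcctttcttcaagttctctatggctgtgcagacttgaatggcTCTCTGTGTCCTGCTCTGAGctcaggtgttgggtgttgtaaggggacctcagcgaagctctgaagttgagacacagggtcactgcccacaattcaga
Gm46428 matches Gm40985 at 96.4% of 251 aligned bases and Gm40987 matches it at 84.1% of 270. The shared stretches add up to 60 bases in each. Reads from copies this similar can be placed at the wrong copy, and their treatment was not stated in the labels, so the pileup of each single copy is uncertain.

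The peaks nearest to the limits of the rule are given as a description. Just inside 1 kb of a lncRNA end lay peaks of A230001M10Rik (pileup 32), Gm31954 (9) and D230017M19Rik (58). Just outside lay 3 peaks with pileups of 17, 17 and 15. Just over 1 kb from a protein-coding end lay peaks of Gm42456 (31), Gm35730 (50) and Gm5144 (24), and just within it lay peaks at lncRNA ends with pileups of 54, 25 and 46.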

How the data were processed

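ATAC-seq peaks of 1 library of untreated NSD1-dTAG E14 cells were used, of 6 samples in 6 groups of 1. Sample titles set the groups, since 6 h is also the treatment label of the samples titled 1 h and 24 h. Per the submitters' processing notes, the tools were MACS2 2.2.6, Bowtie2 2.3.4.1, deepTools 3.2.1, SAMtools 1.9 and bcl2fastq 2.20.0.422, with builds GRCm38.p6 and mm10. The sources used here do not give the handling of duplicates, multiply mapped reads and the Tn5 insertion shift. Peaks were called per sample without a control, per the labels.

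The deposited list gives positions, a score equal to 10 times the -log10 q rounded down, the authors' fold over local background (a ratio), and the authors' -log10 p and -log10 q, the lowest -log10 q being 1.30. Whole pileups were recovered from fold and -log10 p at 77626 of 77629 peaks (tolerance 0.01) in units of reads or fragments, which the labels do not tell apart. The total read count is unknown, and intervals cover counting error or the spread over peaks and genes, not that between libraries. Genes, biotypes and promoter sequences are from RefSeq tables of GRCm38.p6. Strand was taken from the promoter table, which matched 9291 of 12408 lncRNA genes. Protein-coding starts were known for 16457 of 20665 genes. Promoter windows entered only where the annotated start was the gene's outer end.

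The members, the 5 lists and the tests were chosen with earlier results of these data known. Named genes were the 10 tallest, 10 highest-fold and 5 widest peaks, genes with the most peaks (the tied genes in part), listed genes with a peak and, per list, the first 2 without, neighbours of pluripotency genes, and peaks at the limits of the rule. Shares have Wilson, differences Newcombe, pileups exact Poisson and medians order-statistic 95% intervals. Scripts were tested on simulated data. Alternatives varied windows, overlap rule, q threshold, gene set, gene bodies, strength measure, gene length and minimum pileup. Tools were Biopython 1.88, scipy 1.17.1, pandas 2.3.3, numpy 2.4.6 and matplotlib 3.10.9 under Python 3.11.15.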

Additional observations from a re-analysis of the deposited data

Results flagged for a closer look

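Outside the chromosomes of the comparisons, the same rule found 59 peaks at isolated lncRNA ends on chromosome X and 3 on chromosome Y, which were looked at because no comparison uses them. On X, 50 of 288 isolated lncRNA genes had one (17.4%, Wilson 95% interval 13.4 to 22.2), with a median pileup of 19 (16 to 29). BC065397 had a pileup of 95, Kantr had 73 and Firre, a nuclear lncRNA of X, had 71. On Y, all 3 peaks lay at Gm33272, 1 of 30 isolated lncRNA genes, with a median pileup of 170. Their pileups were 176, 170 and 60 and their folds 3.29, 5.22 and 2.19. Those folds lie below 6.95, the median of lncRNA-end peaks on chromosomes 1 to 19. The part of repeated sequence in these pileups was not tested.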

How the results depend on the processing

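No paired analysis was possible because there was 1 library in 1 group. Of 66 recomputed values, 21 stayed within the 95% interval of the reported value (within 1.5 times, for the number of peaks), 45 moved beyond it and no share crossed 50%. Alternatives with a minimum pileup for genes and for start against other end, and with peaks covering the start, were chosen after seeing the data. With windows of 500 bp, 11.0% of isolated lncRNA ends and 18.8% of genes had a peak, medians were pileup 27, fold 7.26 and width 557 bp, and 64.7% and 22.5% of peaks exceeded the median pileup of other distal and of protein-coding gene-end peaks. With windows of 2500 bp there were 5511 peaks, at 24.1% of ends and 34.7% of genes, with medians of 24, 6.61 and 476 bp and shares above of 59.0% and 17.5%. Over 5 kb from protein-coding ends the values were 14.2% of ends, 22.5% of genes, median pileup 24 and fold 7.02, and 30.1% above the protein-coding median. With the summit within 1 kb, 13% of ends and 21.7% of genes had a peak. At a -log10 q of at least 5 these were 12.9% and 21.0%, with medians of 31, 7.75 and 567 bp. With named symbols only there were 211 peaks, at 25.7% of ends and 37.7% of genes, with medians of 36, 6.26 and 602 bp and shares above of 75.8% and 33.7%. That median fold (5.61 to 7.26) is lower than the 6.52 of other distal peaks. Its interval holds 6.52, so the order by fold is not settled for these genes. Outside protein-coding bodies 10.3% of ends and 16.6% of genes had a peak. By fold in place of pileup the shares above were 54.0% and 25.6%, and by -log10 q 58.8% exceeded other distal peaks. The start share was 76.4% in genes longer than 10 kb and 76.8% with a pileup of at least 20, which left 16.0% of genes with a peak. The median CpG ratio at starts with a peak was 0.381 with that pileup and 0.462 for peaks covering the start. The causes of these shifts were not tested. Pileups under 6 were not detectable.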

Other observations

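Annotated small noncoding genes stood beside a small part of the lncRNA-end peaks, for several classes more often than beside other distal peaks. Of the lncRNA-end peaks, 33 (0.987%, Wilson 95% interval 0.704 to 1.38) were within 1 kb of a tRNA gene end, against 0.251% of other distal peaks (0.213 to 0.296). For snoRNA ends the counts were 25 (0.748%, 0.507 to 1.10) against 0.113% (0.0888 to 0.145), and for snRNA ends 16 (0.479%, 0.295 to 0.776) against 0.136% (0.109 to 0.170). For microRNA ends, 13 (0.389%, 0.227 to 0.664) and 0.276% (0.236 to 0.323) had overlapping intervals. Pseudogene ends were near 36 (1.08%, 0.779 to 1.49), against 1.61% (1.51 to 1.72). Ends of at least 2 lncRNA genes were shared by 113 peaks (3.38%), which had a median pileup of 30 (23 to 41), against 25 (25 to 26) at peaks of 1 gene. The median distance of a lncRNA-end peak to the nearest protein-coding gene end was 18339 bp, with quartiles of 6678 and 45938 bp.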
